A study of Mus musculus with 4 samples.

Results

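The genes described here build and serve the gate of the primary cilium. They are 40 listed genes for the BBSome, the transition zone, the inversin compartment and ciliary membrane trafficking, chosen by name, and all 40 had a row among the 22524 genes of the count files. All 40 also passed the filter on low counts, so each was tested among the 14265 genes of the fit. By role they fall into 8 BBSome subunits, 3 chaperonin-like assembly factors, 2 genes for recruitment or entry of the BBSome, 13 genes of the MKS module, 4 NPHP and scaffold genes, 3 inversin compartment genes and 7 trafficking genes.

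The primary cilium is a single antenna of microtubules on the cell surface, with receptors of Hedgehog and other pathways enriched in its membrane. At its base the transition zone, built from the MKS (Meckel syndrome) and NPHP (nephronophthisis) modules, restricts what enters and leaves. The BBSome, named after Bardet-Biedl syndrome, is a coat-like complex that carries membrane proteins out of the cilium, and small GTPases with lipid-binding carriers bring lipid-anchored proteins in. In melanocytic tumours the cilium is often lost, and the series title links that loss to EZH2, the catalytic subunit of Polycomb repressive complex 2.

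RNA was sequenced from tdTomato-positive cells sorted out of mouse dermal hyperplasia at a stage before tumours. All mice carried Tyr::NrasQ61K, the tamoxifen-dependent recombinase Tyr::CreERT2 and the reporter R26R-LSL-tdTomato. The tdTomato label was induced with tamoxifen in the living mice of both groups. The group labelled Ezh2Y646N (2 libraries) also carried ColA1-LSL-Ezh2Y646N, a conditional allele of mutant Ezh2, and the group labelled NrasQ61K (2 libraries) did not. The tyrosinase promoter Tyr drives both the oncogene and the recombinase, so labelling depends on that promoter having been active in a cell or its ancestor. Ages, and whether libraries came from separate or pooled animals, are not given in the labels used here, so each p-value weighs a difference against the spread of these libraries alone, which may be technical. The comparison asks whether RNA for the cilium's gate differs when mutant Ezh2 is present beside NrasQ61K.

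Total counts ranged from 14808801 to 20600297 per library. Libraries of a group were farther apart than sampling alone gives (chi-square over its degrees of freedom 42.5 for Ezh2Y646N, 92.2 for NrasQ61K). Levels are given in CPM, counts scaled by library size. Ezh2 itself was at 135 and 91.5 CPM in the Ezh2Y646N libraries against 171 and 75 CPM in the NrasQ61K libraries. Its log2 fold change was -0.11 (SE 0.39, adjusted p = 0.944 in edgeR's test), and it turned to 0.59 without NrasQ61K replicate 1 and to 0.13 without Ezh2Y646N replicate 2. Counts per gene do not separate mutant from endogenous Ezh2 RNA. No rise beyond the spread of the libraries was seen, so these values neither check the labels nor show expression of the mutant allele. All 10 melanocyte markers were detected, with a summed level of 2650 to 3970 CPM. Beside them, 8 basal epidermis markers summed to 11900 to 26300 CPM and 9 suprabasal epidermis markers to 3420 to 42100 CPM. The libraries thus held RNA of several cell types, and RNA of the listed cilium genes cannot be assigned to any of them. In sorted bulk cells such as these, fewer cells of a type and less RNA per cell cannot be told apart.

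RNA for the cilium's gate was present in every library, and no gene of the 40 differed between the groups past the threshold. In edgeR's quasi-likelihood test 0 of 40 had an adjusted p under 0.05, where 1.77% of all genes tested did (1.1% higher and 0.673% lower in the Ezh2Y646N libraries). DESeq2 (6.13% of all genes) and limma voom (1.5%) also called 0 of 40. At an unadjusted p under 0.05 edgeR's test again held 0 of 40, where 14.3% of all genes passed (7.28% higher, 7.02% lower). Most fitted differences leaned slightly to the NrasQ61K side, with 31 of 40 (77.5%) below 0 against 54.0% of all genes tested, and a median log2 fold change of -0.22 against -0.04. The median was -0.08 without NrasQ61K replicate 1, where 25 of the 40 were below 0, against 0.01 and 49.2% for all genes tested. Without NrasQ61K replicate 2 it was -0.32, where 33 of the 40 were below 0, against 0.02 and 48.6% for all genes tested.

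Sequence around the start sites was read first, because RFX transcription factors, which govern many cilium genes, bind a palindrome-like element called the X-box. RefSeq start-site windows on GRCm38.p6, running from 250 bases before the start to 50 bases after it, were at hand for 38 of the 40 genes. These 38 had 48 windows, and a gene was counted if any of its windows matched. The number of windows per gene was not matched in the comparison with all genes. The letters GTTGCC, which make up an arm of the element, occurred on either strand in the windows of 15 of the 38 (39.5%), against 14.1% of 27025 genes with such a window and 14.6% of the tested genes among them. A fuller 14-base form, GTTGCC followed by any 2 bases, GG, any base and AAC, contains the shorter letters and occurred in 4 of the 38 (10.5%), against 0.355% of all genes with a window and 0.356% of the tested ones. The 4 sites are shown because they let the matching letters be compared between a BBSome gene and 3 transition zone genes. Each is printed in the direction of its gene, with the 14 matching letters in capitals and up to 20 bases on either side.
Bbs7: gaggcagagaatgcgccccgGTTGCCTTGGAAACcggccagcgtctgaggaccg
Mks1: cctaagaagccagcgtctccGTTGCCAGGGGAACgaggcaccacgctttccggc
Tctn1: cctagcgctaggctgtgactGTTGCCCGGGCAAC
Ahi1: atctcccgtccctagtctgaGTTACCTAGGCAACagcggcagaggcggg
The stretches lie at chr3:36613477-36613530 (minus strand) for Bbs7, chr11:87853171-87853224 (plus strand) for Mks1, chr5:122264411-122264444 (minus strand) for Tctn1 and chr10:20952548-20952596 (plus strand) for Ahi1. Counting the start site as base 1, the match began at base -121 in Bbs7, -24 in Mks1, 37 in Tctn1 and 22 in Ahi1, and in Ahi1 the letters read on the opposite strand. A match is a description of the letters and does not show that a factor binds there.

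Of these 4 genes, Bbs7 and Mks1 had log2 fold changes of 0.53 and 0.61, Tctn1 one of -0.16 and Ahi1 one of -0.04, none past the threshold. The 15 genes with the shorter letters had a median log2 fold change of -0.21, with 12 below 0, and the 23 without them a median of -0.23, with 18 below 0.

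Levels within the list spanned 32.2-fold when compared per length, as CPM per kb of annotated exon. That length joins the exons of every annotated transcript of a gene, so the order by level depends in part on the annotation. Trafficking genes headed the order. Arl13b, a small GTPase of the ciliary membrane, had the highest mean level at 14.6 CPM per kb, followed by its partner GTPase Arl3 at 10.7 and the carrier Unc119b at 7.99. Cep290, the large protein that ties the transition zone's membrane to its microtubules, came next at 6.59 CPM per kb. The lowest were Anks6 at 0.454 CPM per kb, Nphp4 at 0.740 and Tmem216 at 0.802. No gene was at 0 in any library, and counts per gene and library ran from 23 for Bbs10 to 1628 for Arl13b, with a median of 183.5.

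**Figure D1:**
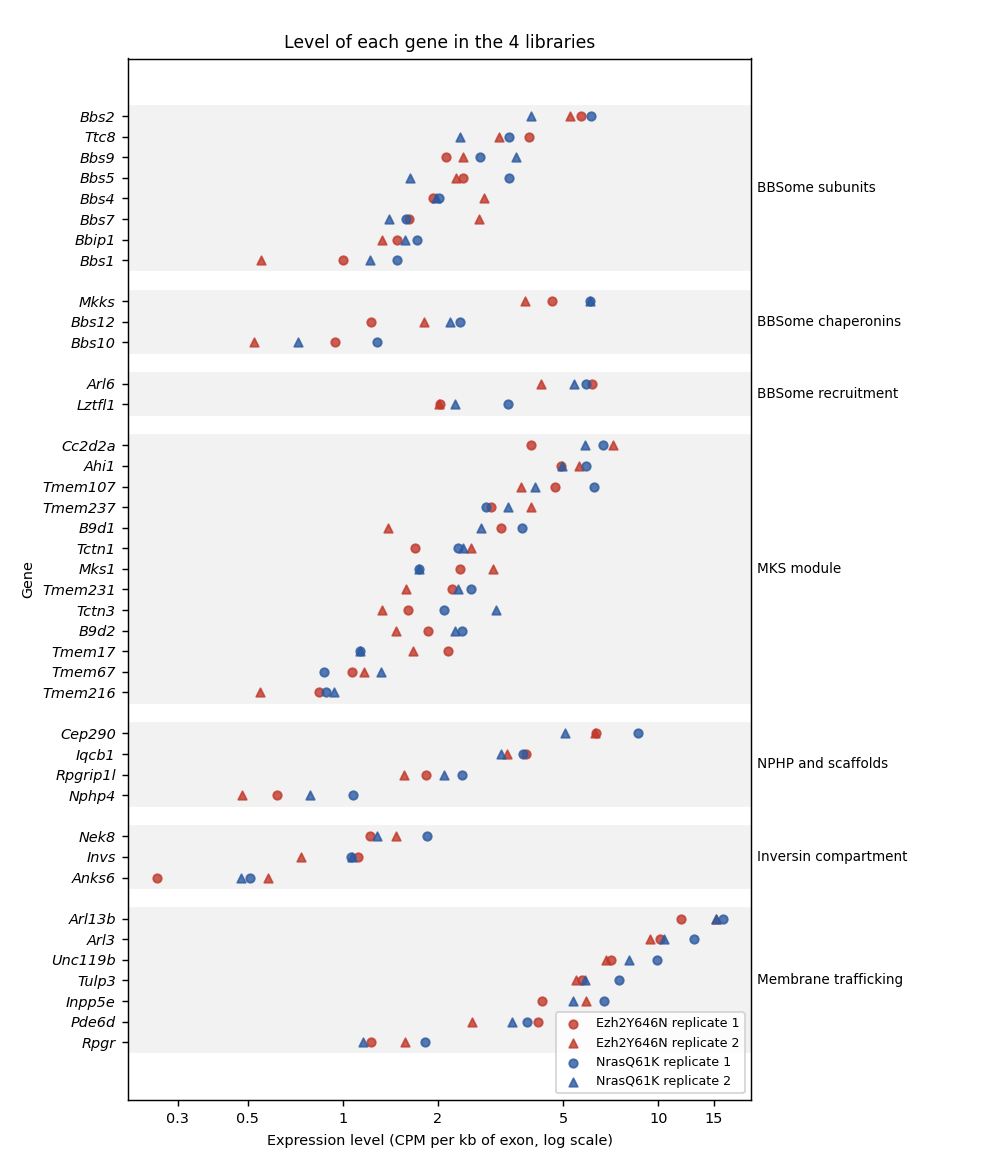
Level of each of the 40 genes in the 4 libraries, in CPM per kb of exon on a log axis, grouped by role, with circles for replicate 1 and triangles for replicate 2 of each group. Arl13b and Arl3 stand highest, Anks6 lowest, and red (Ezh2Y646N) and blue (NrasQ61K) points are mixed or close in most rows.

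The 8 BBSome subunits pointed in both directions and none passed the threshold. In the fit 4 were above 0 and 4 below, with a median log2 fold change of 0.02, which became 0.37 without NrasQ61K replicate 1 and -0.17 without NrasQ61K replicate 2. Per length they lay between 1.07 CPM per kb for Bbs1 and 5.25 for Bbs2. Bbs2 (ENSMUSG00000031755, chromosome 8, 94067954 to 94098928, all such positions on GRCm38) forms the core of the complex with Bbs7 and Bbs9. It was at 18.8 and 17.5 CPM in the Ezh2Y646N libraries and 20.2 and 13 CPM in the NrasQ61K libraries. The NrasQ61K libraries held both its highest and its lowest value, so the groups overlapped, with a fitted log2 difference of 0.13 (SE 0.31, adjusted p = 0.916 in edgeR's test).

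Bbs1 had the largest difference among the subunits. It is the subunit that contacts membrane cargo and the GTPase Arl6 (ENSMUSG00000006464, chromosome 19, 4886878 to 4906628). Its level was 7.70 and 4.21 CPM in the Ezh2Y646N libraries and 11.4 and 9.39 CPM in the NrasQ61K libraries, means of 5.95 ± 2.47 and 10.4 ± 1.44 CPM (SD, n = 2 each). Both Ezh2Y646N libraries lay below both NrasQ61K libraries. The log2 fold change was -0.80 with a 95% interval of -1.75 to 0.14 (edgeR's adjusted p = 0.45), and it ranged from -1.30 to -0.44 as each library was left out.

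Bbs9, another core subunit (ENSMUSG00000035919, chromosome 9, 22475715 to 22888280), was at 13.3 and 15 CPM against 17.1 and 22.1 CPM. Its groups did not overlap either, with a log2 fold change of -0.47 (95% interval -1.13 to 0.20, edgeR's adjusted p = 0.554). Bbip1, the smallest subunit, was the other with both Ezh2Y646N libraries lower, by a smaller margin (-0.23). Bbs7 was the subunit with both Ezh2Y646N libraries higher, at 8.73 and 14.6 CPM against 8.59 and 7.57 CPM, though its replicate 1 values in the groups were close. The tetratricopeptide repeat subunits Ttc8 and Bbs4 had log2 fold changes of 0.30 and 0.25, and Bbs5, which binds membrane phosphoinositides, one of -0.08, all with overlapping groups.

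The 3 chaperonin-like genes, whose products help the Bbs2, Bbs7 and Bbs9 core to assemble, all had fitted values below 0, with a median of -0.53, and none passed the threshold. Mkks (ENSMUSG00000027274, chromosome 2, 136873780 to 136891389) was at 14.9 and 12.2 CPM in the Ezh2Y646N libraries and at 19.6 CPM in both NrasQ61K libraries. The groups did not overlap, and the log2 fold change was -0.53 (95% interval -1.17 to 0.11, edgeR's adjusted p = 0.466). Of its exon bases 29.3% are shared with AL731706.1 on the same strand, so its counts are uncertain.

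Bbs12 (ENSMUSG00000051444, chromosome 3, 37312554 to 37321453) was at 2.99 and 4.42 CPM against 5.75 and 5.32 CPM, with no overlap, a log2 fold change of -0.58 (95% interval -1.61 to 0.45) and an adjusted p of 0.654 in edgeR's test. Bbs10, at 1.59 to 3.92 CPM, overlapped between groups and had a log2 fold change of -0.45. Leaving out single libraries moved the median of the 3 between -0.68 and -0.40.

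Of the 2 genes for recruitment and entry, Arl6 is the GTPase that brings the BBSome to membranes (ENSMUSG00000022722, chromosome 16, 59612949 to 59639391). It was at 12.9 and 8.90 CPM in the Ezh2Y646N libraries and 12.4 and 11.4 CPM in the NrasQ61K libraries. Its Ezh2Y646N libraries were both the highest and the lowest of the 4, with a fitted log2 difference of -0.12 (SE 0.33, adjusted p = 0.929 in edgeR's test) that turned to 0.12 without Ezh2Y646N replicate 2. Lztfl1 restrains entry of the BBSome into the cilium (ENSMUSG00000025245, chromosome 9, 123694416 to 123717697). Its level was 22.7 and 22.6 CPM against 37.2 and 25.2 CPM, a log2 fold change of -0.46 (95% interval -1.11 to 0.18, edgeR's adjusted p = 0.545). Most of that gap came from NrasQ61K replicate 1, and without this library the value was -0.15.

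**Figure D2:**
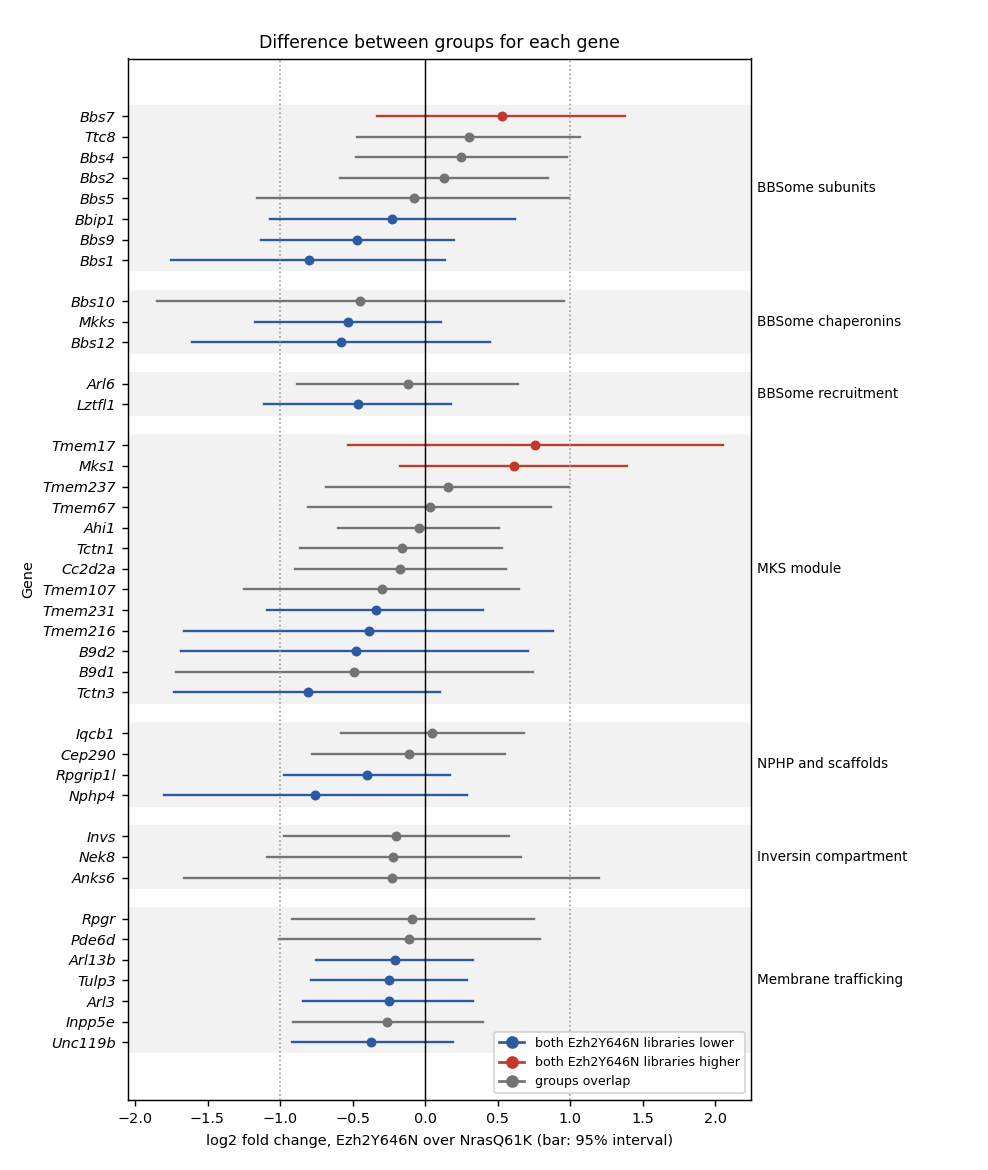
Fitted log2 fold change of each gene, Ezh2Y646N over NrasQ61K, as a point with its 95% interval from edgeR's quasi-likelihood fit, grouped by role; dotted lines mark a 2-fold difference either way. All 40 intervals cover 0; blue marks the 16 genes and red the 3 genes whose groups do not overlap.

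The MKS module had 9 of 13 genes below 0 and 4 above, a median of -0.17, and 0 past the threshold. The median was 0.05 without Ezh2Y646N replicate 1. Both ends of the whole list lay in this module, with Tctn3 lowest at -0.81 and Tmem17 highest at 0.76. Tctn3 encodes a tectonic protein of the transition zone (ENSMUSG00000025008, chromosome 19, 40596446 to 40612233). It was at 5.28 and 4.35 CPM in the Ezh2Y646N libraries and 6.88 and 10.1 CPM in the NrasQ61K libraries, means of 4.82 ± 0.662 and 8.47 ± 2.25 CPM (SD, n = 2 each). The groups did not overlap, but the NrasQ61K libraries were farther from each other than the nearest pair across groups. The 95% interval was -1.73 to 0.10 and edgeR's adjusted p was 0.422, the smallest of the 40, with an unadjusted p of 0.075.

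Mks1, a B9-domain protein mutated in Meckel syndrome (ENSMUSG00000034121, chromosome 11, 87853215 to 87863803), leaned the other way. It was at 9.53 and 12.1 CPM against 7.07 and 7.09 CPM, with both Ezh2Y646N libraries higher and the NrasQ61K libraries nearly equal. The log2 fold change was 0.61 (95% interval -0.17 to 1.39, edgeR's adjusted p = 0.495). Its partners B9d1 and B9d2, which share the B9 domain and act in the same complex, had log2 fold changes of -0.49 and -0.48. Tmem17, a membrane protein of the module, was at 3.39 and 2.62 CPM against 1.77 CPM in both NrasQ61K libraries, and its interval of -0.53 to 2.05 reached higher than that of any other gene of the 40.

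Cc2d2a, a C2-domain protein of the transition zone, was the module's most abundant gene per length at 5.93 CPM per kb (ENSMUSG00000039765, chromosome 5, 43662346 to 43740972). It was at 26.9 and 49.1 CPM in the Ezh2Y646N libraries and 45.4 and 40 CPM in the NrasQ61K libraries. The Ezh2Y646N libraries spanned the NrasQ61K values from both sides, so the log2 fold change of -0.17 (SE 0.32) lay within their spread and turned to 0.20 without Ezh2Y646N replicate 1. Ahi1, the Joubert syndrome gene that encodes jouberin, was at 34.6 and 39.5 CPM against 41.6 and 34.8 CPM, with overlapping groups and the narrowest 95% interval of the module, -0.60 to 0.51. Among the other membrane proteins, Tmem231 and Tmem216 had both Ezh2Y646N libraries lower (-0.34 and -0.39), while Tmem107, Tmem237 and Tmem67 overlapped between groups (-0.30, 0.16 and 0.03). Tctn1, another tectonic gene, had a log2 fold change of -0.16, and 19.0% of its exon bases are shared with Hvcn1 on the opposite strand.

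Among the NPHP and scaffold genes 3 of 4 were below 0, with a median of -0.26, and none passed the threshold. That median became -0.07 without NrasQ61K replicate 1 and -0.43 without NrasQ61K replicate 2. Nphp4, a nephronophthisis protein that binds Rpgrip1l (ENSMUSG00000039577, chromosome 4, 152476706 to 152563183), was at 3.73 and 2.90 CPM in the Ezh2Y646N libraries and 6.50 and 4.74 CPM in the NrasQ61K libraries. The groups did not overlap, and the log2 fold change was -0.76 (95% interval -1.80 to 0.29, edgeR's adjusted p = 0.537). Rpgrip1l, a scaffold on which other transition zone proteins depend (ENSMUSG00000033282, chromosome 8, 91217030 to 91313262), was at 27.0 and 22.8 CPM against 35.0 and 30.9 CPM. Its groups did not overlap either, and its interval of -0.97 to 0.17 around -0.40 kept a 2-fold decrease outside (edgeR's adjusted p = 0.554).

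Cep290 (ENSMUSG00000019971, chromosome 10, 100487558 to 100574840) was at 73.7 and 73.4 CPM in the Ezh2Y646N libraries and 100 and 58.8 CPM in the NrasQ61K libraries. The Ezh2Y646N libraries were almost equal and lay between the NrasQ61K libraries. Its log2 difference of -0.11 (SE 0.29, adjusted p = 0.923 in edgeR's test) moved to -0.41 without NrasQ61K replicate 2, and to 0.32 without NrasQ61K replicate 1. Iqcb1, which encodes the Cep290-binding protein nephrocystin-5, was at 17.1 to 20.5 CPM over the 4 libraries, with a log2 fold change of 0.05.

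The 3 inversin compartment genes act in the stretch of the cilium just above the transition zone. All 3 overlapped between groups, where 44.2% of all genes tested did not overlap. The log2 fold changes of the 3 lay between -0.23 and -0.20. Invs encodes inversin, which anchors the compartment (ENSMUSG00000028344, chromosome 4, 48279760 to 48431954), and was at 12.8 and 8.42 CPM against 12.1 and 12.2 CPM, with an adjusted p of 0.874 in edgeR's test. The kinase gene Nek8 (ENSMUSG00000017405, chromosome 11, 78166106 to 78176675) was the most abundant of the 3 per length, at 6.38 and 7.66 CPM against 9.66 and 6.66 CPM (edgeR's adjusted p = 0.876). Invs was at 0.07 without Ezh2Y646N replicate 2 and Nek8 at 0.07 without NrasQ61K replicate 1. Anks6, which binds and activates Nek8, was at 1.38 to 3.11 CPM and had an interval of -1.66 to 1.20, too wide to set a limit near 2-fold either way.

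The 7 trafficking genes had the smallest median SE of the modules, 0.25. All were below 0, between -0.37 and -0.09, with a median of -0.25, and none passed the threshold. That median became -0.08 without NrasQ61K replicate 1 and -0.37 without NrasQ61K replicate 2. For 6 of the 7 the whole 95% interval lay within a log2 fold change of 1 in either direction. Arl13b (ENSMUSG00000022911, chromosome 16, 62793685 to 62847040), which activates Arl3 by nucleotide exchange, was at 59.8 and 78.0 CPM in the Ezh2Y646N libraries and 81.2 and 78.0 CPM in the NrasQ61K libraries. The replicate 2 libraries of the groups were equal to 3 digits, so the Ezh2Y646N libraries lay lower by less than the rounding, and the log2 fold change was -0.21 (95% interval -0.75 to 0.33, edgeR's adjusted p = 0.796). Arl3, which releases lipid-anchored cargo inside the cilium, was at 25.2 and 23.5 CPM against 32.3 and 25.8 CPM (-0.25).

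Unc119b carries myristoylated proteins to the cilium (ENSMUSG00000046562, chromosome 5, 115122550 to 115134975). It was at 32.7 and 31.5 CPM in the Ezh2Y646N libraries and 45.7 and 37.1 CPM in the NrasQ61K libraries, means of 32.1 ± 0.806 and 41.4 ± 6.02 CPM (SD, n = 2 each). The groups did not overlap, with a log2 fold change of -0.37 (95% interval -0.92 to 0.19, edgeR's adjusted p = 0.581). Tulp3, the adaptor that brings receptors into the cilium (ENSMUSG00000001521, chromosome 6, 128321161 to 128355851), was at 53.7 and 51.1 CPM against 70.0 and 54.9 CPM. Its gap was mostly NrasQ61K replicate 1, and the log2 fold change of -0.25 (edgeR's adjusted p = 0.731) was -0.07 without that library.

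The prenyl-binding carrier Pde6d and its cargo Inpp5e, a phosphatase that sets the phosphoinositides of the ciliary membrane, had log2 fold changes of -0.11 and -0.26 with overlapping groups. Of the exon bases of Inpp5e 20.3% are shared with Pmpca on the opposite strand. Rpgr, a transition zone protein mutated in X-linked retinal degeneration, was at 8.39 to 13.2 CPM over the 4 libraries with a log2 fold change of -0.09.

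Across the 40 genes both Ezh2Y646N libraries were lower than both NrasQ61K libraries in 16 (40%), where 23.1% of all genes tested were, and higher in 3 (7.5%), where 21.1% were. Counting both directions, the groups were apart in 19 of the 40, 47.5% against 44.2% of all genes tested. Among the 9350 tested genes whose mean level lay in the range of the 40, 2.39 to 76.6 CPM, the groups did not overlap with Ezh2Y646N lower in 24.7%, and 55.9% had a log2 fold change below 0. The 95% interval of the log2 fold change stayed above -1, which leaves a 2-fold decrease outside it, in 22 of the 40 (55.0%, against 66.3% of all genes tested). It lay within 1 of 0 on both sides in 18 (45.0%, against 46.8%). In the 18 genes outside those 22 the interval reached -1, so a 2-fold decrease lay inside it.

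NrasQ61K replicate 1 had the highest value of the 4 libraries in 23 of the 40 genes (57.5%), where it was highest in 32.7% of all genes tested. The summed level of the 40 was 635 and 671 CPM in the Ezh2Y646N libraries and 813 and 676 CPM in the NrasQ61K libraries, so NrasQ61K replicate 2 lay beside the Ezh2Y646N libraries. The same library was highest in summed proliferation markers, at 2550 CPM against 1080 to 1750 in the others, in fibroblast markers, at 4280 against 860 to 2490 CPM, and in hair shaft and inner root sheath markers, at 2920 against 228 to 1530 CPM. It was lowest in summed suprabasal epidermis markers, at 3420 CPM against 8880 to 42100, and in melanocyte markers, at 2650 CPM against 3450 to 3970. Their part in the levels of the 40 genes was not tested.

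Between the groups, all 9 suprabasal markers were above 0 in the fit, with a median log2 fold change of 2.33, and summed to 29800 and 42100 CPM in the Ezh2Y646N libraries against 3420 and 8880 CPM. All 11 hair shaft and inner root sheath markers were below 0, with a median of -2.93 and sums of 228 and 502 against 1530 and 2920 CPM. The 10 fibroblast markers were all below 0 as well (median -1.45, 860 and 2130 against 2490 and 4280 CPM). So were the 8 endothelial (median -0.72, 100 and 155 against 223 and 243 CPM) and the 10 macrophage and dendritic cell markers (median -1.38, 79.1 and 136 against 164 and 381 CPM). Of 8 Schwann cell markers 6 were above 0 (median 0.86, 445 and 1040 against 277 and 454 CPM, which overlap). Melanocyte markers, of the cell type that the Tyr promoter marks, were above 0 in 9 of 10 (median 0.23, 3880 and 3970 against 2650 and 3450 CPM, with no overlap of the sums). Dct alone made up most of each sum, at 2200 and 2750 against 1490 and 2000 CPM. Taken singly, 6 of the 10 melanocyte markers overlapped between groups and 4 did not, where 44.2% of all genes tested did not overlap. Basal epidermis markers were above 0 in 6 of 8 (median 0.19, 15700 and 24000 against 11900 and 26300 CPM), and proliferation markers were below 0 in 9 of 10 (median -0.32, 1150 and 1750 against 1080 and 2550 CPM), both with overlapping sums. In edgeR's test 4 suprabasal, 4 hair shaft and inner root sheath, 1 fibroblast and 1 Schwann cell markers had an adjusted p under 0.05. None of the other lists' markers did, and 1.77% of all genes tested did. The listed markers Flg (suprabasal) and Krt85 (hair) were not found by symbol. The part of these lists in the lean of the 40 genes was not tested. Markers of multiciliated cells were near 0, with 7 genes summing to 1.31 to 3.69 CPM per library and 1 to 4 of the 7 at 0 counts.

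**Figure D3:**
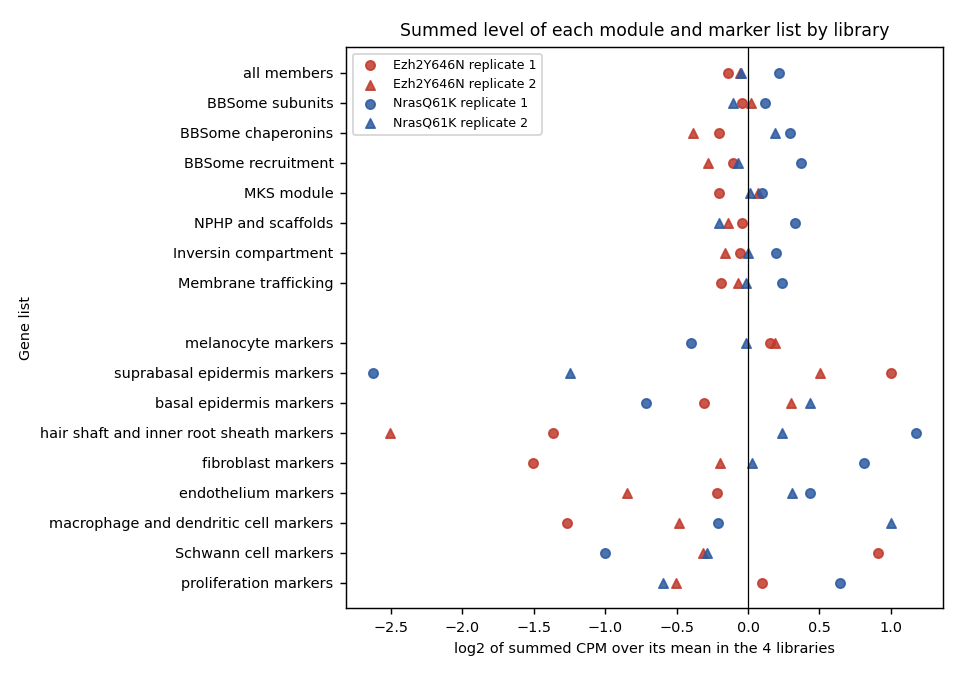
Summed CPM of each module and each marker list in the 4 libraries, as log2 of the sum over its mean in the 4 libraries, with red for Ezh2Y646N and blue for NrasQ61K, circles for replicate 1 and triangles for replicate 2. The sums of the 40 genes lie close together with NrasQ61K replicate 1 (813 CPM) to the right, while the suprabasal, hair and fibroblast lists spread far wider.

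The wider pathway was read from 54 further genes of the transition zone, trafficking and ciliary cargo, of which 53 had a row and 49 were tested. In edgeR's test 0 of the 49 passed, where 1.77% of all genes tested did. DESeq2, which tested 13 cargo genes where edgeR tested 10, called 1, Rab11a (6.13% of all genes), and limma voom 0 (1.5%). Of 19 other transition zone genes 12 were below 0 (63.2%, against 54.0% of all genes tested), with a median log2 fold change of -0.16. Dzip1l was the gene with an unadjusted p under 0.05 in edgeR's test, which 14.3% of all genes tested passed. Dzip1l, which acts at the transition zone with Cby1, was at 47.8 and 65.4 CPM against 102 and 77.7 CPM (-0.66, edgeR's adjusted p = 0.297). Togaram1, a protein of ciliary microtubules, and Cby1 had log2 fold changes of -0.39 and 0.46, the latter -0.04 without Ezh2Y646N replicate 2.

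Of 20 other trafficking genes 13 were below 0 (65.0%, against 54.0% of all genes tested), with a median of -0.26. In edgeR's test 3 of the 20 had an unadjusted p under 0.05, of which 2 were lower, where 14.3% of all genes tested did. Rab11a, the recycling endosome GTPase that starts delivery of membrane to the cilium and serves recycling throughout the cell, was at 178 and 148 CPM in the Ezh2Y646N libraries and 65.0 and 91.2 CPM in the NrasQ61K libraries. The groups did not overlap, and the log2 fold change of 1.06 (95% interval 0.47 to 1.64) missed the threshold with an adjusted p of 0.0922 in edgeR's test. It passed in DESeq2 (adjusted p = 0.00764), in edgeR with no filter on low counts (0.00307) and in edgeR without NrasQ61K replicate 2 (0.00821), and over all alternatives its adjusted p ran from 0.00127, with the replicate number as a block, to 0.395, without Ezh2Y646N replicate 1.

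Rab34, a GTPase needed to form cilia inside the cell, was at 27.0 and 21.5 CPM against 42.0 and 36.2 CPM (-0.69, edgeR's adjusted p = 0.255). Cplane1, which helps recruit transport particles to the ciliary base, was at 53.9 and 56.9 CPM against 99.8 and 71.6 CPM (-0.63, adjusted p = 0.295). Of the 14 listed ciliary membrane cargoes 10 were tested and 8 were below 0 (80.0%, against 54.0% of all genes tested), with a median of -0.16. In edgeR's test 0 of the 10 had an unadjusted p under 0.05, where 14.3% of all genes tested did. The Hedgehog-inhibiting receptor Gpr161, polycystin-1 (Pkd1) and the ciliary adenylyl cyclase Adcy3 had log2 fold changes of -0.51, -0.40 and 0.42.

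**Figure D4:**
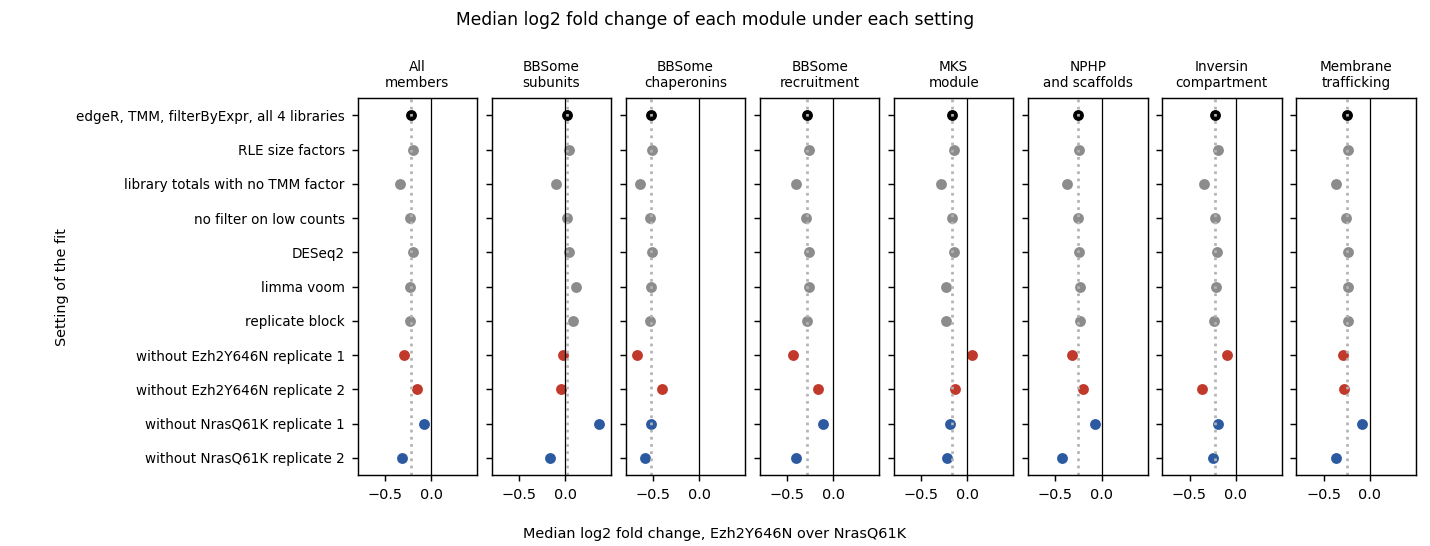
Median log2 fold change (Ezh2Y646N over NrasQ61K) of all 40 genes and of each module under each setting of the fit, with black for the main setting, grey for other scalings, filters and models, red and blue for fits that leave out an Ezh2Y646N or NrasQ61K library, and a dotted line at the main value. The medians of all 40 stay between -0.34 and -0.08, and those of the BBSome subunits lie on both sides of 0.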

How the data were processed

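The authors' deposited files hold read counts per Ensembl gene and library, whole numbers with no normalization, per the file headers and values. Per the submitters' processing notes, the tools were featureCounts, edgeR, STAR 2.5.4b, Trimmomatic and bcl2fastq 2.19 on GRCm38, with no roles stated. Strand setting, annotation release and gene filter were not given in the sources used here. Per the labels' protocols, a stranded total RNA kit for small inputs with ribosomal RNA removal was used. Without a stated strand setting, reads of overlapping or antisense genes cannot be told apart, and 14 of the 40 genes share exon bases with another gene.

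Symbols, positions and exon lengths came from GENCODE M21 (GRCm38), in which 22291 identifiers matched and 233 did not; promoter windows came from RefSeq. edgeR 4.0.16 in R 4.3.3 was fitted on all genes kept by filterByExpr (minimum count 10, minimum total 15), with TMM scaling, a robust quasi-likelihood fit with group as its term, Benjamini-Hochberg adjustment over all genes tested and a threshold of 0.05. CPM are counts scaled by the TMM-adjusted library size. SE and 95% intervals come from the F statistic. The fit was tested on simulated data. Alternatives were RLE factors, library totals, no filter, DESeq2 1.42.0, limma 3.58.1 voom, the replicate number as a block, and each library left out.

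Values were given in each library for the 2 genes of smallest p and the most abundant gene per length of each module, and for others chosen after their values were seen. From each wider list the 3 genes of smallest p were named. The genes, lists and tests were chosen with earlier results of these data known.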

Additional observations from a re-analysis of the deposited data

How the results depend on the processing

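Under every alternative run, 0 of the 40 genes passed an adjusted threshold, and at most 1 had an unadjusted p under 0.05 (1 with library totals, 1 with no filter, 1 with the replicate block; 0 to 1 as each library was left out). With library totals in place of TMM the median of all genes tested shifted from -0.04 to -0.16. The median of the 40 was then -0.34 and that of the MKS module -0.29, and edgeR's test called 155 of all genes tested lower. Genes overall called higher and lower numbered 157 and 96 in the main setting, 686 and 616 with no filter on low counts, 505 and 378 in DESeq2, and 710 and 627 with the replicate block. Replicate numbers are not stated to pair the libraries, and same-numbered libraries deviated together with a correlation of 0.141 across genes. Leaving out each library in turn gave 49 to 730 genes higher and 43 to 393 lower, with the fewest without Ezh2Y646N replicate 1 and the most without NrasQ61K replicate 2. Medians then ranged from -0.32 to -0.08 for the 40 genes, -0.17 to 0.37 for BBSome subunits and -0.68 to -0.40 for chaperonin-like genes. They ranged from -0.44 to -0.11 for recruitment and entry, -0.22 to 0.05 for the MKS module and -0.43 to -0.07 for NPHP and scaffold genes. The ranges were -0.36 to -0.09 for the inversin compartment and -0.37 to -0.08 for trafficking genes. Named log2 fold changes that changed sign ranged from -0.11 to 0.48 for Bbs2, -0.41 to 0.12 for Arl6, -0.67 to 0.20 for Cc2d2a, -0.41 to 0.32 for Cep290, -0.53 to 0.07 for Invs, -0.42 to 0.07 for Nek8, -0.04 to 0.83 for Cby1 and -0.55 to 0.59 for Ezh2. With 1 library left in a group, that library is assumed to vary like the other group's. The cause of these shifts was not tested. With 2 libraries per group precision is limited for all 40 genes, and counts as low as 23 limit it further for the rarer ones.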
